A study of Mus musculus with 18 samples.

Results

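The direct comparison of the RelA mutants set 6 libraries of RelA(TA2) cells against 6 libraries of RelA(Ser276Ala) cells, 12 of the 18 libraries of the series. Each line was sampled untreated (0 h) and after TNFα (5 ng/ml) for 1 h or 2 h, with 2 libraries per line and time. All cells were immortalized rela-/- mouse embryonic fibroblasts into which mouse RelA had been put back by a retroviral vector, so that the lines share the loss of both Rela alleles and differ in the mutant that was returned. RelA(TA2) carries the changes Leu449Ala and Phe473Ala in its transactivation domain. RelA(Ser276Ala) carries the single change Ser276Ala in its Rel homology region. RelA(wt) cells, the other 6 libraries, took no part in the tests. The labels and the methods do not say whether a line was 1 clone or a pool, and all 6 libraries of a line come from 1 reconstituted line. The p-values below therefore measure the spread between libraries, and a difference due to the mutation cannot be told apart from any other difference between these lines.

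RelA is the transactivating subunit of the common NF-κB dimer. In resting cells IκB proteins hold it in the cytoplasm, and TNFα releases it through IκB degradation. It then binds κB sites and contacts the co-activators CBP and p300. The paper found CBP and p300 on the target promoters it examined already before TNFα, and proposes that they help to bring RelA there. Its transactivation domain contacts the TAZ1 domain of CBP and p300, and phosphorylation of Ser276 serves contact with their KIX domain. RelA(TA2) was made to weaken the first contact and RelA(Ser276Ala) the second, and their direct comparison asks where transcript levels depend on which contact is weakened.

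The reference codons that the mutants replace are shown first, since they define the lines. They lie in the mouse Rela gene on the forward strand of chromosome 19 (GRCm38, GENCODE annotation), the codon of Ser276 in exon 8 at chr19:5641625-5641627 and those of Leu449 and Phe473 in exon 11, the last, at chr19:5647111-5647113 and chr19:5647183-5647185. Capitals mark the codon.
Ser276: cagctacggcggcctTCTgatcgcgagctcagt
Leu449: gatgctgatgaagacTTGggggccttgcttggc
Phe473: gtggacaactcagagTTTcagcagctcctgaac

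Promoters of some genes that the results turn on are shown next, with letters that match the κB consensus in capitals. They come from RefSeq (GRCm38.p6), cover 250 bases before and 50 after a start site, and were searched on both strands. Of its 27025 genes, 5.14% hold a match. Overlapping matches are written as 1 stretch, and the windows read in the direction of transcription.
Tnfaip3, chr10:19015506-19015555, reverse strand: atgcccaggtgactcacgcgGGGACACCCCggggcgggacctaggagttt
Tnfaip3, chr10:19015411-19015442, reverse strand: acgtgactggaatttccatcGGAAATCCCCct
Tnip1, chr11:54962967-54963018, reverse strand: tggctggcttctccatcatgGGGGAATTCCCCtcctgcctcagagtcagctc
Nfkbia, chr12:55492657-55492686, reverse strand: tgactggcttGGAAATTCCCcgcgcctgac
Irf1, chr11:53769991-53770020, forward strand: agtccgggccGGGGAATCCCgctaagtgtt
Ccl20, chr1:83116666-83116715, forward strand: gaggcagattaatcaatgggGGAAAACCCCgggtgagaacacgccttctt
H2-K1, chr17:34000428-34000478, reverse strand: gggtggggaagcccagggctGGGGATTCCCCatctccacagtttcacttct
Tmem176b, chr6:48841387-48841416, reverse strand: ggcccctttaGGGGTTTTCCagcaggcagc
The Tmem176b match is shared with Tmem176a, its neighbour on the other strand, where the same 10 bases are read in the other direction. The windows are a selection, and every gene shown had a higher estimate in RelA(TA2) cells, so they show no link between matches and direction. Il1r1, which was lower in RelA(TA2) cells, and Cxcl2, which was not tested, also hold a match. The windows of Saa3, C3, Wdr92, Ptgs2, Lif, Junb, Icam1, Tnf and Csf2 hold no match. A comparison of called genes with other genes is not given here, since only 79.3% of the genes tested have a promoter in the table.

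The libraries of the mutant lines held 25.3 M to 30.1 M mapped fragments, as worked out from the deposited values. Fibroblast genes were present throughout. All 12 fibroblast markers listed were measured. Of these, 5 were higher in RelA(TA2) cells (Fn1, Col1a2, Col1a1, Dcn and Pdgfrb, 41.7% against 4.32% of all genes tested) and none was lower. Of the markers of fat, muscle, nerve, epithelium, endothelium and macrophages, Krt19 (epithelium) and Tubb3 (nerve) were higher in RelA(TA2) cells and no other passed, and the call of Krt19 held in 3 of the 12 fits that left out 1 library. In RelA(TA2) 0 h replicate 1 and RelA(Ser276Ala) 1 h replicate 1, 95.8% of the recovered fragments lay in genes, against 98.1% to 98.6% in the other 10. Gene FPKM is the summed FPKM (fragments scaled to transcript length and library depth) of the transcripts assembled on a gene, and a gene without an assembled transcript is listed at 0. A 0 can be a failed assembly, since Rpl37, a ribosomal protein gene that every cell uses, is listed at 0 in both RelA(TA2) libraries at 2 h.

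Over all times, 528 genes were higher and 660 were lower in RelA(TA2) cells than in RelA(Ser276Ala) cells, with an adjusted p under 0.05 in limma and time as a block. These are 4.32% and 5.40% of the 12224 genes tested. Without RelA(Ser276Ala) 0 h replicate 2 the counts were 344 and 429, and the lower genes numbered 419 to 439 without RelA(TA2) 1 h replicate 1 or 2, RelA(TA2) 2 h replicate 2 or RelA(Ser276Ala) 1 h replicate 2. With a block for each time and replicate number they were 255 and 297. The change was at least 2-fold for 106 of the higher and 116 of the lower genes. The median log2 difference over all genes tested was -0.03. On fragment counts recovered from the same values, 495 of the higher and 621 of the lower genes also passed in the same direction (4.05% and 5.08% of the genes tested). That measure has a smaller spread (median residual SD 0.118 against 0.307 on the log2 scale) and on its own called 2005 higher and 2500 lower genes of 11745 (17.1% and 21.3%). In 334 genes (2.73%) every RelA(TA2) library lay above every RelA(Ser276Ala) library, and in 508 (4.16%) every one lay below, together 6.89% of the genes tested.

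**Figure D1:**
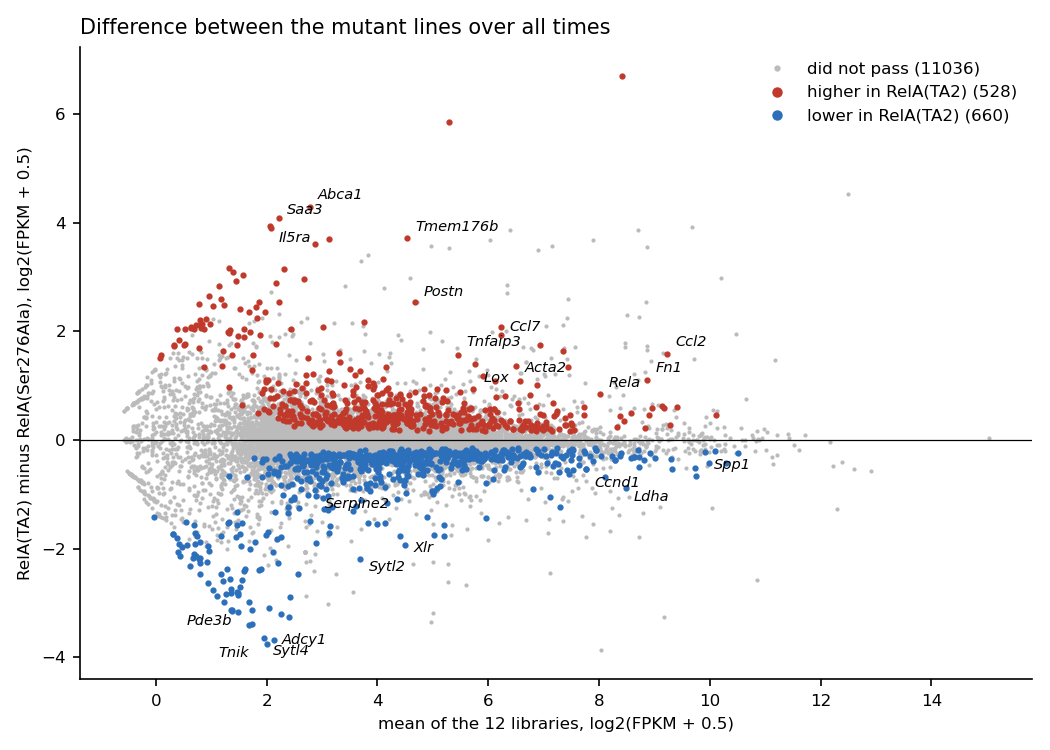
Each point is a gene, with its mean level over the 12 libraries on the x axis and the RelA(TA2) minus RelA(Ser276Ala) difference on the y axis, both on the log2(FPKM + 0.5) scale. Red genes (528) passed as higher and blue genes (660) as lower in RelA(TA2) cells, and the labelled genes are described in the text.

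The difference was present before TNFα. At 0 h, 121 genes were higher and 81 lower (0.990% and 0.663% of those tested), at 1 h 96 and 96 (0.785% each), and at 2 h 126 and 82 (1.03% and 0.671%). Each of these contrasts rests on 2 libraries per line. Of the genes called over all times, 527 of 528 higher and 659 of 660 lower genes had the same sign at every time, and 35 and 33 were called at all 3 times. The counts at single times moved with single libraries. Without RelA(TA2) 0 h replicate 1, one of the 2 libraries with a low share of fragments in genes, the 0 h counts were 289 and 196, and without RelA(Ser276Ala) 0 h replicate 1 the higher genes were 58.

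The level of Rela RNA differed between the lines. Rela (chr19:5637490-5648130 in mm10) had 344, 315, 366, 329, 327 and 323 FPKM in the RelA(TA2) libraries, in the order 0, 0, 1, 1, 2 and 2 h, against 186, 174, 211, 175, 190 and 174 FPKM in the RelA(Ser276Ala) libraries. The means were 334 ± 18.5 and 185 ± 14.6 FPKM (SD, n = 6 each), a log2 difference of 0.85 (SE 0.06, adjusted p = 4.55e-05, limma). Every RelA(TA2) library lay above every RelA(Ser276Ala) library, and within a line the 3 times lay close together. In RelA(wt) cells Rela lay between 156 and 187 FPKM. The mutated codons are a few bases of the transcript, so this value does not tell which mutant it is. It sums all RNA placed on the Rela exons, so the transgene and any RNA of the cells' own Rela gene are not told apart. The Rela level, in RNA and in protein, moves with the line in every comparison below. Its part in them cannot be told apart from that of the mutation.

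Among 20 genes for RelA, the other NF-κB subunits and co-activators, 3 were higher (Rela, Nfkb1 and Ncoa1, 15% against 4.32% of all genes tested) and 1 was lower (Hdac2, 5.00% against 5.40%), with a median log2 difference of 0.14. Nfkb1 encodes p105, the precursor of the p50 subunit and itself an NF-κB target. It had 15.7 and 13.1 FPKM at 0 h, 15.8 and 14.2 at 1 h and 57.0 and 51.5 at 2 h in RelA(TA2) cells, against 10.2 and 9.97, 10.7 and 9.70, and 19.7 and 19.6 FPKM in RelA(Ser276Ala) cells. RelA(TA2) cells were higher at each time, most at 2 h (log2 difference 1.44, SE 0.12, adjusted p = 0.00222 at that time, and 0.82 over all times, adjusted p = 0.0104, limma). The call of Ncoa1, a nuclear receptor co-activator, held in 3 of the 12 fits that left out 1 library and was not made on recovered fragments. Hdac2, a histone deacetylase, had 75.4 to 85.0 FPKM in RelA(TA2) cells, all below the 95.0 to 108 FPKM of RelA(Ser276Ala) cells (log2 difference -0.33, SE 0.05, adjusted p = 0.00273, limma). The genes of the co-activators CBP and p300 did not pass. Crebbp, which encodes CBP, had 6.07 to 10.2 FPKM in RelA(TA2) cells and 5.75 to 13.7 FPKM in RelA(Ser276Ala) cells (log2 difference -0.08, SE 0.23, adjusted p = 0.872), and on recovered fragments the sign turned (0.16, adjusted p = 0.0114, limma). Ep300, which encodes p300, had 10.2 to 25.1 FPKM and 10.3 to 17.0 FPKM in the same order (log2 difference 0.16, SE 0.22, adjusted p = 0.716).

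Of the IκB proteins and feedback inhibitors of NF-κB, 3 of 17 tested were higher in RelA(TA2) cells (Tnfaip3, Tnip1 and Nfkbiz, 17.6% against 4.32% of all genes tested), none was lower, and the median was 0.26. Tnfaip3 encodes A20, an enzyme that removes ubiquitin chains and ends TNF receptor signalling. It had 5.94 and 6.77 FPKM at 0 h, 167 and 158 at 1 h and 26.2 and 31.2 at 2 h in RelA(TA2) cells, against 2.44 and 3.01, 55.0 and 50.7, and 7.12 and 6.40 FPKM in RelA(Ser276Ala) cells. Both lines peaked at 1 h, and at each time both RelA(TA2) libraries lay above both RelA(Ser276Ala) libraries. The log2 difference was 1.09 at 0 h (adjusted p = 0.0126), 1.62 at 1 h (adjusted p = 0.00190) and 2.00 at 2 h (adjusted p = 8.14e-04, SE 0.14 each, limma), and 1.57 over all times (SE 0.14, adjusted p = 1.83e-04). In RelA(wt) cells its 1 h values were 283 and 274 FPKM, and its 2 h values 10.6 and 10.5 FPKM. The level before TNFα thus differed already, and the change with TNFα was not shown to differ between the mutants (difference in response 0.52, adjusted p = 0.694 at 1 h, and 0.91, adjusted p = 0.292 at 2 h).

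Tnip1, the A20 partner ABIN-1, had 15.3 to 30.9 FPKM (median 23.4) in RelA(TA2) cells and 11.7 to 15.1 FPKM (median 12.7) in RelA(Ser276Ala) cells. These ranges did not overlap (log2 difference 0.73, SE 0.14, adjusted p = 0.0108, limma). The call of Nfkbiz, an atypical IκB, held in 2 of the 12 fits without 1 library. Nfkbia, the gene of IκBα and the classic early target of NF-κB, was nearly level between the mutants. It had 14.3 and 17.1 FPKM at 0 h, 193 and 190 at 1 h and 75.4 and 87.5 at 2 h in RelA(TA2) cells, against 13.2 and 12.8, 187 and 162, and 58.4 and 67.5 FPKM in RelA(Ser276Ala) cells. Its log2 difference was 0.26 (SE 0.07) and missed the threshold (adjusted p = 0.0618, limma), while it passed on recovered fragments (0.26, adjusted p = 0.00858). Both promoters, of Tnfaip3 and of Nfkbia, hold κB matches in the sequences above.

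**Figure D2:**
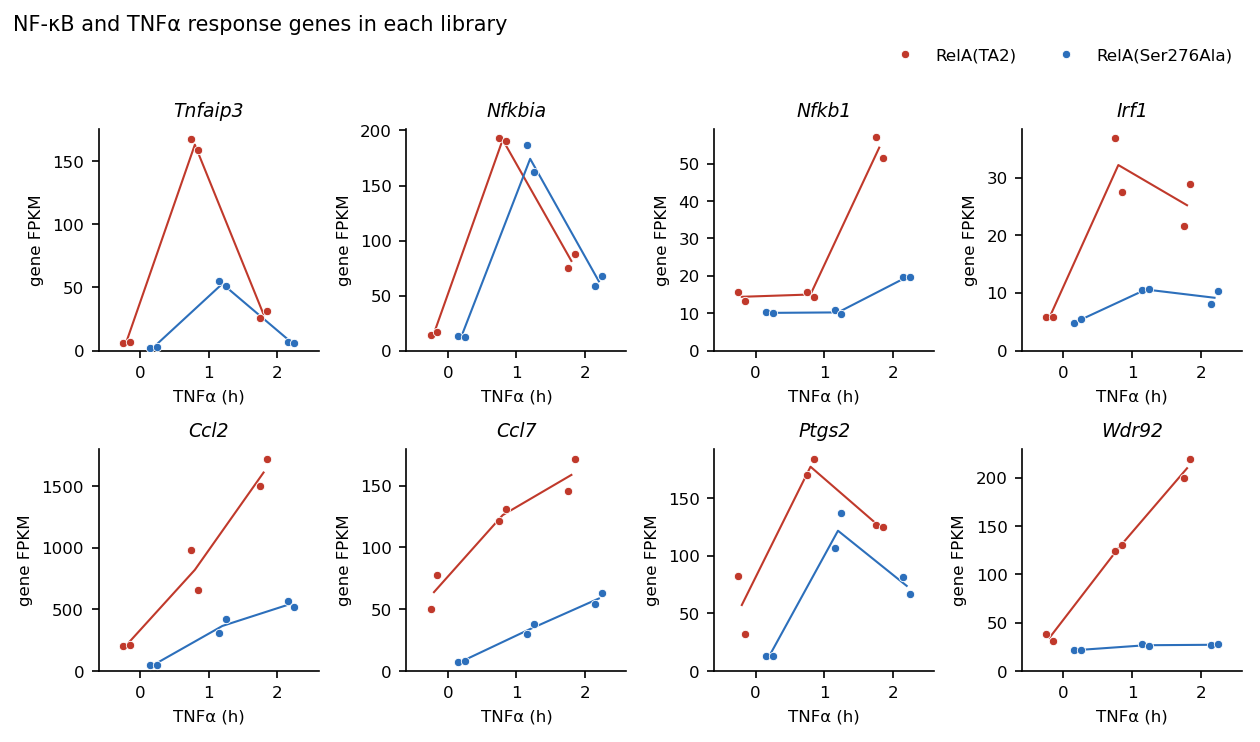
Gene FPKM in each library (points; lines join the means of 2 libraries) of 8 genes against hours of TNFα, with RelA(TA2) in red at the left and RelA(Ser276Ala) in blue at the right of each time. Tnfaip3 reaches 167 and 158 FPKM in RelA(TA2) cells at 1 h and 55.0 and 50.7 FPKM in RelA(Ser276Ala) cells, Nfkbia is near level, and Wdr92 reaches 200.0 and 220.0 FPKM at 2 h in RelA(TA2) cells and stays under 28.0 FPKM in RelA(Ser276Ala) cells.

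The CC chemokines, which draw monocytes and other leukocytes, gave the highest median of any list, 1.24 over 8 tested members, of which 3 were higher in RelA(TA2) cells (37.5% against 4.32% of all genes tested) and none lower. The 3 called genes, Ccl2, Ccl7 and Ccl11, are neighbours on the forward strand of chromosome 11 (mm10, chr11:82035577-82037452, chr11:82045712-82047523 and chr11:82057832-82062955). Ccl2, the monocyte attractant MCP-1, had 201 and 215 FPKM at 0 h, 982 and 659 at 1 h and 1503 and 1717 at 2 h in RelA(TA2) cells, against 48.8 and 52.3, 310 and 422, and 568 and 523 FPKM in RelA(Ser276Ala) cells. Its log2 difference was 1.58 over all times (SE 0.16, adjusted p = 3.38e-04, limma). Ccl7, a related attractant, had 50.2 and 77.4, 121 and 131, and 146 and 171 FPKM at the 3 times in RelA(TA2) cells, against 7.49 and 8.01, 30.1 and 37.9, and 54.2 and 63.2 FPKM in RelA(Ser276Ala) cells. For Ccl7 the gap was largest before TNFα, with a mean ratio of 8.23 at 0 h, 3.71 at 1 h and 2.70 at 2 h (log2 difference 2.93, SE 0.21, adjusted p = 0.00132 at 0 h, and 2.08, SE 0.23, adjusted p = 6.64e-04 over all times, limma). Ccl2 likewise had mean ratios of 4.11, 2.24 and 2.95. The response of neither gene was shown to differ between the lines (adjusted p of 0.531 or more at 1 h and 0.263 or more at 2 h).

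Ccl11, the eosinophil attractant eotaxin, had 6.56 to 12.5 FPKM in RelA(TA2) cells and 1.84 to 2.50 FPKM in 5 RelA(Ser276Ala) libraries, but 11.0 FPKM in RelA(Ser276Ala) 1 h replicate 2. Its log2 difference was 1.51 (SE 0.39, adjusted p = 0.0400, limma), and the call held in 2 of the 12 fits without 1 library, with adjusted p between 2.20e-04 and 0.0884. Among 4 CXC and CX3C chemokines tested, only Cxcl12 passed as higher, and its call held in 6 of those 12 fits. Cxcl1, a neutrophil attractant listed at 0 in all 4 libraries before TNFα, had 43.6 and 51.7 FPKM at 1 h and 16.9 and 24.8 at 2 h in RelA(TA2) cells, against 39.1 and 24.2, and 8.62 and 6.08 FPKM in RelA(Ser276Ala) cells (log2 difference 0.68, SE 0.24, adjusted p = 0.111). The neutrophil attractant Cxcl2, the growth factor gene Csf2 and Tnf were under the level needed for a test. Cxcl2 and Csf2 were above 0 in 1 RelA(TA2) library, at 1.70 and 1.24 FPKM at 1 h, and in no RelA(Ser276Ala) library, and Tnf was listed at 0 in all 12. Vcam1, an adhesion molecule for leukocytes, had 20.0 to 35.9 FPKM in RelA(TA2) cells and 19.4 to 41.3 FPKM in RelA(Ser276Ala) cells (log2 difference 0.20, SE 0.15, adjusted p = 0.459, limma), and Icam1, listed at 1.65 and 3.72 FPKM in RelA(TA2) cells at 2 h and at 0 in the other 10 libraries, did not pass (adjusted p = 0.322).

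Acute-phase, complement and innate defence genes had 7 of 12 tested members higher in RelA(TA2) cells and none lower (58.3% against 4.32% of all genes tested). Of the 7, Saa3, C3 and Lcn2 reached the level needed for a test in RelA(TA2) libraries only, so a call could only be higher. Among the 7 members that reached it in both lines, 4 were higher. Over the whole list 6 members at most were called in any fit without 1 library, and 4 without RelA(TA2) 0 h replicate 2, 1 h replicate 1 or 2 h replicate 1, or without RelA(Ser276Ala) 0 h replicate 1, 0 h replicate 2 or 2 h replicate 1. Saa3, an acute-phase apolipoprotein of mouse fibroblasts and macrophages, had 7.08, 12.5, 6.24, 5.01, 10.3 and 8.74 FPKM across RelA(TA2) cells and was listed at 0 in all 6 RelA(Ser276Ala) libraries. C3, the central complement component, had 0.973 to 10.1 FPKM in RelA(TA2) cells and was also listed at 0 in all 6 RelA(Ser276Ala) libraries. Both genes were above 0 in every RelA(wt) library, between 4.61 and 20.4 FPKM for Saa3 and between 2.92 and 9.46 FPKM for C3. C1s, the complement protease that starts the classical pathway, had 84.2 to 121 FPKM in RelA(TA2) cells and 35.5 to 76.0 FPKM in RelA(Ser276Ala) cells, without overlap (log2 difference 1.08, SE 0.18, adjusted p = 0.00570, limma).

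The prostaglandin synthases Ptgs1 and Ptgs2 and the siderophore-binding Lcn2 were also among the 7. Ptgs2, the inducible cyclooxygenase, had 82.5 and 32.1 FPKM at 0 h, 170 and 184 at 1 h and 127 and 124 at 2 h in RelA(TA2) cells, against 13.0 and 13.1, 106 and 137, and 81.2 and 66.6 FPKM in RelA(Ser276Ala) cells. It was higher in RelA(TA2) cells at each time, with the widest gap before TNFα. The log2 difference over all times was 1.09 (SE 0.27, adjusted p = 0.0370, limma), but the call held in 2 of the 12 fits without 1 library. Relative to the 0 h mean of the line, Ptgs2 rose less in RelA(TA2) cells, 3.09 times at 1 h and 2.19 times at 2 h. The same ratios were 9.32 and 5.66 in RelA(Ser276Ala) cells and 11.15 and 7.145 in RelA(wt) cells. Ptgs2 was not among the genes called for a different response. Lcn2 was listed at 0 in all RelA(Ser276Ala) libraries and at 0 to 5.09 FPKM in RelA(TA2) cells.

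Among 29 interferon-stimulated and antigen-processing genes, 4 were higher (H2-K1, H2-D1, Psmb8 and Irf1, 13.8% against 4.32% of all genes tested) and 1 lower (Ifit3, 3.45% against 5.40%), with a median of 0.25. Without RelA(TA2) 0 h replicate 1 the higher genes were 7, and the call of the lower one was lost in 10 of the 12 fits without 1 library. H2-K1, a class I antigen-presenting molecule, had 602 to 834 FPKM in RelA(TA2) cells and 416 to 474 FPKM in RelA(Ser276Ala) cells, a clear separation (log2 difference 0.62, SE 0.07, adjusted p = 0.00100, limma). Reads of H2-K1 and H2-D1 can be split between near-identical copies, so these values are uncertain. Irf1, a transcription factor induced by TNFα and interferons, had 5.77 and 5.84 FPKM at 0 h, 36.9 and 27.5 at 1 h and 21.6 and 28.9 at 2 h in RelA(TA2) cells, against 4.73 and 5.42, 10.5 and 10.7, and 8.06 and 10.3 FPKM in RelA(Ser276Ala) cells. The lines were near each other before TNFα (log2 difference 0.18, adjusted p = 0.735) and apart at 1 h (1.54, adjusted p = 0.0124) and at 2 h (1.41, adjusted p = 0.0187, SE 0.20 each, limma). The difference in response itself, 1.36 at 1 h and 1.23 at 2 h (SE 0.28), did not pass (adjusted p = 0.233 and 0.344).

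Cytokines and growth factors went both ways, 5 of 25 higher (Fgf7, Tnfsf9, Lif, Inhba and Clcf1) and 3 lower, among them Areg and Il18, with a median of 0.34. These are 20.0% and 12% of the list, against 4.32% and 5.40% of all genes tested. The higher genes were 3 without RelA(TA2) 1 h replicate 1 or 2, RelA(TA2) 2 h replicate 2 or RelA(Ser276Ala) 1 h replicate 1, and the lower ones 1 without RelA(Ser276Ala) 0 h replicate 1 or 2 h replicate 1. Fgf7, a growth factor for epithelium, had 25.8 to 51.8 FPKM in RelA(TA2) cells and 13.0 to 25.8 FPKM in RelA(Ser276Ala) cells (log2 difference 0.94, SE 0.09, adjusted p = 2.06e-04, limma). Tnfsf9, the ligand of 4-1BB, had 10.3 to 17.3 FPKM in RelA(TA2) cells and 5.93 to 10.9 FPKM in RelA(Ser276Ala) cells, higher in the first at each time (log2 difference 0.70, SE 0.09, adjusted p = 0.00146, limma). Neither line raised it at 1 h (mean ratio to 0 h 0.968 and 1.03), where RelA(wt) cells had a ratio of 4.91. Areg, a ligand of the EGF receptor, went the other way, with 5.23 and 5.48, 17.97 and 17.63, and 12.3 and 14.7 FPKM in RelA(TA2) cells, against 11.9 and 14.05, 29.2 and 30.2, and 21.0 and 16.0 FPKM in RelA(Ser276Ala) cells (log2 difference -0.78, SE 0.13, adjusted p = 0.00561, limma).

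Of 32 receptors of cytokines and growth factors, 6 were higher (Il1rl1, Ifngr1, Fas, Igf1r, Pdgfrb and Fgfr2) and 3 lower (Il1r1, Il13ra1 and Met), 18.8% and 9.38% against 4.32% and 5.40% of all genes tested. Il13ra1 reached the level needed for a test in RelA(Ser276Ala) libraries only, so a call could only be lower. Among the 29 receptors that reached it in both lines, 6 were higher and 2 lower. Over the whole list the higher genes were 3 without RelA(TA2) 2 h replicate 2, RelA(Ser276Ala) 0 h replicate 1 or RelA(Ser276Ala) 1 h replicate 2. Il1r1 and Il1rl1, receptors of the interleukin-1 family, were called in opposite directions. Il1r1, the signalling receptor of interleukin-1, had 2.46 to 3.47 FPKM in RelA(TA2) cells and 4.59 to 7.54 FPKM in RelA(Ser276Ala) cells (log2 difference -1.01, SE 0.09, adjusted p = 2.21e-04, limma). Il1rl1, which encodes the interleukin-33 receptor ST2, had 1087 to 1479 FPKM in RelA(TA2) cells and 800.0 to 1091 FPKM in RelA(Ser276Ala) cells (log2 difference 0.45, SE 0.06, adjusted p = 0.00138). Among 26 immediate-early genes Nr4a2 and Junb were higher and none was lower, a share (7.69%) near the 4.32% of all genes tested. Nr4a2, a nuclear orphan receptor, had 10.2 to 32.9 FPKM in RelA(TA2) cells and 5.95 to 13.9 FPKM in RelA(Ser276Ala) cells, higher at each time (log2 difference 1.10, SE 0.10, adjusted p = 2.05e-04, limma). The call of Junb held in 6 of the 12 fits without 1 library.

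**Figure D3:**
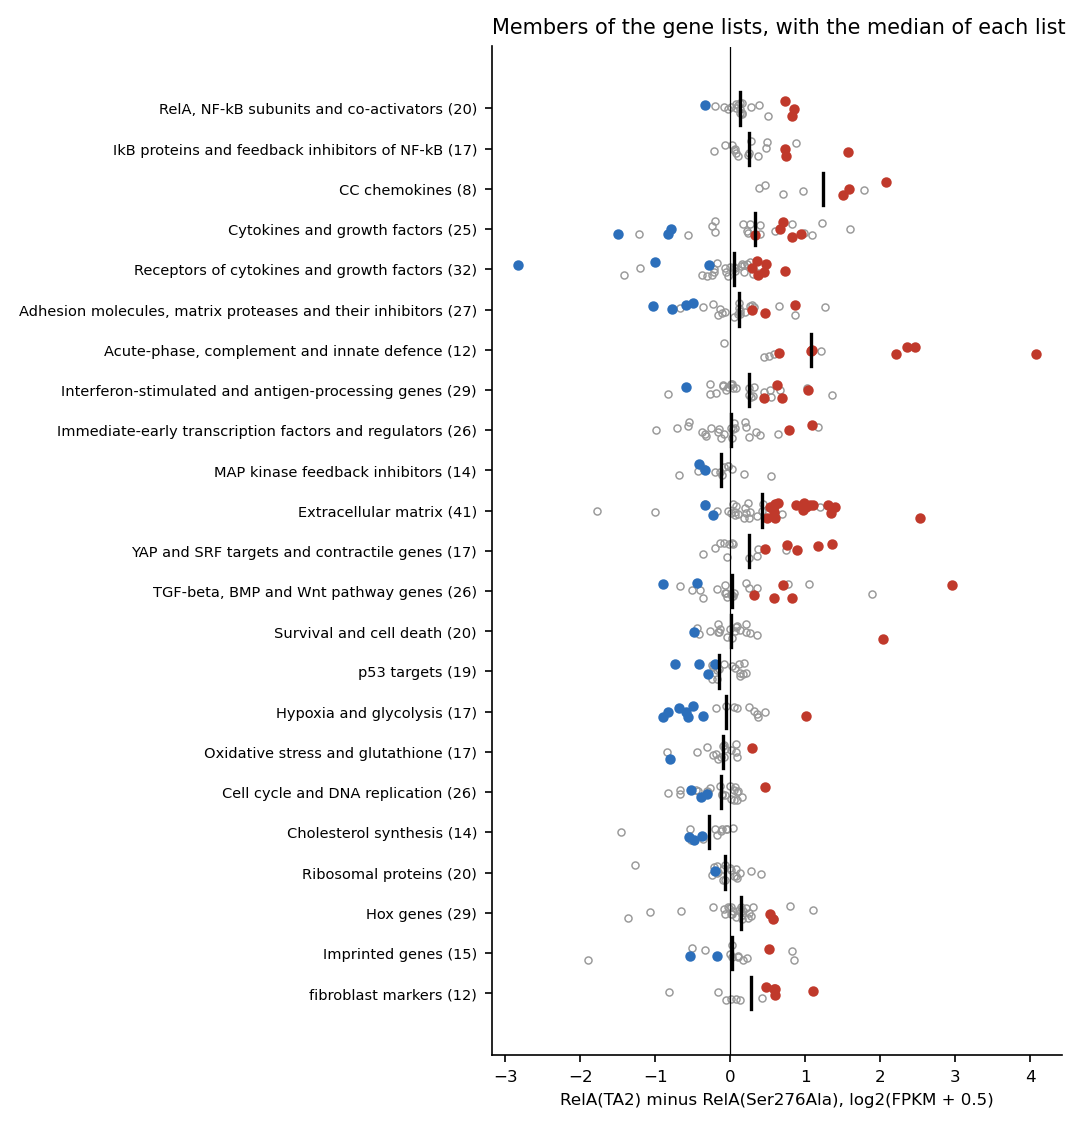
RelA(TA2) minus RelA(Ser276Ala) difference on the log2(FPKM + 0.5) scale for the members of 23 gene lists, with the number tested in brackets and a black bar at each list's median. Filled red and blue points passed as higher and lower in RelA(TA2) cells; 17 of 41 extracellular matrix genes and 7 of 12 acute-phase and complement genes are red, and 7 of 17 hypoxia and glycolysis genes are blue.

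Extracellular matrix genes were the list with the most calls. Of 41 tested, 17 were higher in RelA(TA2) cells (41.5% against 4.32% of all genes tested), 2 were lower, and the median was 0.42. In 15 of the 41 all 6 RelA(TA2) libraries lay above all 6 RelA(Ser276Ala) libraries, as they did in 2.73% of all genes tested. Lox, the enzyme that crosslinks collagen and elastin, had 66.8 and 58.3, 82.6 and 79.2, and 92.8 and 90.3 FPKM at 0, 1 and 2 h in RelA(TA2) cells, against 24.2 and 21.8, 27.2 and 31.6, and 36.0 and 36.1 FPKM in RelA(Ser276Ala) cells (log2 difference 1.40, SE 0.06, adjusted p = 1.64e-06, limma). Both lines climbed with time and kept a mean ratio between 2.54 and 2.75. Fn1, fibronectin, had 591 to 767 FPKM in RelA(TA2) cells and 267 to 324 FPKM in RelA(Ser276Ala) cells (log2 difference 1.10, SE 0.08, adjusted p = 4.50e-05). Postn, the matricellular protein periostin, had 30.2 to 72.4 FPKM in RelA(TA2) cells and 5.85 to 7.34 FPKM in RelA(Ser276Ala) cells, a mean ratio of 6.49 (log2 difference 2.53, SE 0.21, adjusted p = 1.21e-04).

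The same direction held for the collagen chains Col1a1, Col1a2, Col8a1 and Col12a1, the crosslinking enzymes Loxl1 and Loxl2, the fibulins Fbln2 and Fbln5, and Vcan, Thbs1, Nid1, Ogn, Dcn and Sparc. Col1a1 had 235 to 275 FPKM in RelA(TA2) cells and 150 to 184 FPKM in RelA(Ser276Ala) cells (log2 difference 0.60, SE 0.06, adjusted p = 4.15e-04, limma). Bgn, a small proteoglycan, and Spp1, osteopontin, were the 2 members lower in RelA(TA2) cells. Bgn had 320 to 357 FPKM in RelA(TA2) cells and 399 to 451 FPKM in RelA(Ser276Ala) cells (log2 difference -0.33, SE 0.04, adjusted p = 0.00107), and Spp1 had 843 to 969 FPKM and 977 to 1111 FPKM in the same order (log2 difference -0.23, SE 0.04, adjusted p = 0.0129). The summed level of the 12 fibroblast markers was 5120 to 5724 FPKM in RelA(TA2) libraries and 4226 to 4882 FPKM in RelA(Ser276Ala) libraries, 4 of the 5 that passed (Fn1, Col1a1, Col1a2 and Dcn) are also on the matrix list, and 7 did not pass, among them Vim (log2 difference 0.01), Thy1 (0.14), Pdgfra (-0.06) and S100a4 (-0.17). Their part in the matrix result was not tested.

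Of 17 targets of YAP and SRF and contractile genes, 5 were higher in RelA(TA2) cells (Acta2, Tagln, Amotl2, Myl9 and Cnn2, 29.4% against 4.32% of all genes tested) and none lower, with a median of 0.25. Acta2, smooth muscle actin and a mark of myofibroblasts, had 123 to 142 FPKM in RelA(TA2) cells and 46.5 to 58.7 FPKM in RelA(Ser276Ala) cells (log2 difference 1.36, SE 0.05, adjusted p = 6.64e-07, limma). Tagln, an actin-bundling protein, had 55.3 to 107 FPKM and 21.9 to 46.5 FPKM in the same order (log2 difference 1.17, SE 0.11, adjusted p = 2.85e-04). Both ranges stood apart without overlap. Of 26 genes of the TGF-beta, BMP and Wnt pathways, 5 were higher (Fstl1, Dkk2, Ltbp2, Tgfb3 and Tgfb1) and 2 lower (Id2 and Wisp1), 19.2% and 7.69% against 4.32% and 5.40% of all genes tested. The higher genes were 3 without RelA(Ser276Ala) 0 h replicate 1 or 2. Ltbp2, a protein of elastic fibres, had 5.76 to 16.7 FPKM in RelA(TA2) cells and 0 to 4.53 FPKM in RelA(Ser276Ala) cells (adjusted p = 0.0159, limma). Among 27 adhesion molecules, matrix proteases and their inhibitors, 3 were higher (Cdh11, Cdh2 and Mmp11) and 4 lower (Serpine2, Plat, Itgb3 and Plau), 11.1% and 14.8% against 4.32% and 5.40% of all genes tested. The lower ones include both plasminogen activators and 1 of their inhibitors. Serpine2, the inhibitor protease nexin, had 4.15 to 4.61 FPKM in RelA(TA2) cells and 8.76 to 10.3 FPKM in RelA(Ser276Ala) cells (log2 difference -1.03, SE 0.07, adjusted p = 4.07e-05, limma). Plat, tissue plasminogen activator, had 24.3 to 29.4 FPKM and 33.9 to 44.4 FPKM in the same order (log2 difference -0.50, SE 0.05, adjusted p = 4.80e-04).

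**Figure D4:**
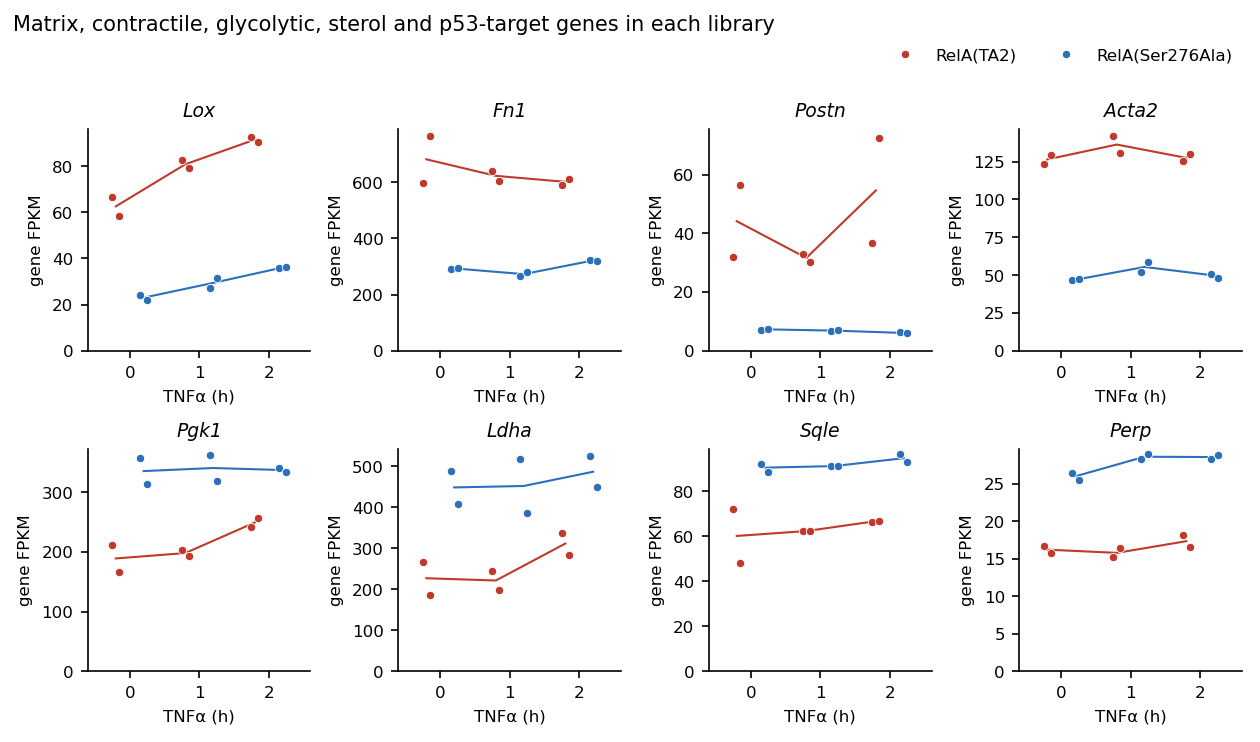
Gene FPKM in each library (points; lines join the means of 2 libraries) of 8 genes against hours of TNFα, RelA(TA2) in red and RelA(Ser276Ala) in blue. Lox, Fn1, Postn and Acta2 lie higher and Pgk1, Ldha, Sqle and Perp lower in every RelA(TA2) library than in any RelA(Ser276Ala) library.

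Of 17 genes of hypoxia and glycolysis tested, 7 were lower in RelA(TA2) cells (41.2% against 5.40% of all genes tested) and 1, the vasoactive peptide gene Adm, was higher. The list median was -0.06, and -0.34 on recovered fragments, where 10 of 16 were lower and 1 higher. Ldha, lactate dehydrogenase, had 267 and 186, 244 and 198, and 338 and 284 FPKM at 0, 1 and 2 h in RelA(TA2) cells, against 488 and 408, 517 and 386, and 525 and 448 FPKM in RelA(Ser276Ala) cells (log2 difference -0.89, SE 0.13, adjusted p = 0.00281, limma). Pgk1, a glycolytic kinase, had 166 to 257 FPKM in RelA(TA2) cells and 314 to 363 FPKM in RelA(Ser276Ala) cells (log2 difference -0.68, SE 0.09, adjusted p = 0.00154). Bnip3, a hypoxia-induced mitophagy receptor, had 9.22 to 12.4 FPKM and 16.8 to 21.3 FPKM in the same order (log2 difference -0.83, SE 0.07, adjusted p = 1.75e-04). Aldoa, Pfkl and Eno1, which are enzymes of glycolysis, and Ndrg1 were the other 4.

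Of 14 genes of cholesterol synthesis, 3 were lower (Sqle, Cyp51 and Sc5d, 21.4% against 5.40% of all genes tested) and none higher, with a median of -0.29. Of the 12 fits without 1 library, 9 called 1 member and 2, without RelA(TA2) 0 h replicate 1 or 2, called 6 members. Sqle, squalene epoxidase, had 48.1 to 72.2 FPKM in RelA(TA2) cells and 88.8 to 96.5 FPKM in RelA(Ser276Ala) cells (log2 difference -0.55, SE 0.09, adjusted p = 0.00384, limma), while the calls of Cyp51 and Sc5d each held in 3 of the 12 fits without 1 library. Of 19 p53 targets, 4 were lower (Perp, Ccng1, Aen and Sesn1, 21.1% against 5.40% of all genes tested) and none higher, with a median of -0.15. Perp, a membrane protein of desmosomes, had 15.2 to 18.1 FPKM in RelA(TA2) cells and 25.5 to 28.9 FPKM in RelA(Ser276Ala) cells (log2 difference -0.74, SE 0.05, adjusted p = 5.55e-05, limma), while Ccng1, Aen and Sesn1 held in 8, 1 and 1 of those 12 fits. Of 26 cell cycle genes, 3 were lower (11.5% against 5.40% of all genes tested). The calls of Mki67 and Mcm6, marks of proliferation and replication, held in 8 and 6 of the 12 fits without 1 library. The other was Ccnd1, cyclin D1, at 157 to 189 FPKM in RelA(TA2) cells and 235 to 280 FPKM in RelA(Ser276Ala) cells (log2 difference -0.53, SE 0.06, adjusted p = 0.00107). Ccnd1 was joined with a neighbouring gene in an assembled transcript, which adds uncertainty to its FPKM. The cyclin gene Ccnd3 was the 1 cell cycle gene that was higher (3.85% against 4.32% of all genes tested). On the remaining lists at most 2 genes were called in either direction. Over all genes tested, 4.32% were higher and 5.40% lower. Apart from the lower MAP kinase inhibitors and imprinted genes, the shares given below were near these. Survival and cell death (20 tested) had Casp4 among its calls (5% in each direction). Casp4 was higher and reached the level needed for a test in RelA(TA2) libraries only. MAP kinase feedback inhibitors (14) had Dusp4 and Dusp5 lower (14.3%), and ribosomal proteins (20) had Rpl4 lower (5%). The calls of Dusp5 and Rpl4 held in 2 and 1 of the 12 fits without 1 library. The stress and unfolded protein response (18) had Pdia4 higher (5.56%). Oxidative stress genes (17) had Nfe2l2 higher and Mgst1 lower (5.88% each), and Hox genes (29) had Hoxc5 and Hoxc8 higher (6.9%). Imprinted genes (15) had Plagl1 higher (6.67%) and Peg10 and Grb10 lower (13.3%, held in 10 and 7 of those fits). None of 6 histone genes passed. Xist, the RNA of X inactivation, was higher, with a call that held in 4 of the 12 fits without 1 library.

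The genes furthest apart were chosen per direction as those with the largest differences among genes past the test on both measures, with separate libraries and a mean of at least 5 FPKM in the higher line. The higher ones include Tmem176b (chr6:48833812-48841374) and Tmem176a (chr6:48841384-48847063), related membrane protein genes that lie head to head. Tmem176b had 45.0, 42.5, 41.4, 48.2, 42.7 and 36.3 FPKM in the RelA(TA2) libraries, against 3.01, 2.54, 2.52, 2.92, 2.93 and 2.65 FPKM in the RelA(Ser276Ala) libraries. The mean ratio was 15.5, and TNFα time made little difference to it (15.8, 16.5 and 14.2 at 0, 1 and 2 h, log2 difference 3.72, SE 0.08, adjusted p = 1.35e-08, limma). RelA(wt) libraries lay in between, at 9.32 to 12.1 FPKM. Tmem176a had 9.17 to 17.0 FPKM in RelA(TA2) cells and 1.12 to 6.22 FPKM in RelA(Ser276Ala) cells (log2 difference 2.08, SE 0.38, adjusted p = 0.00907).

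**Figure D5:**
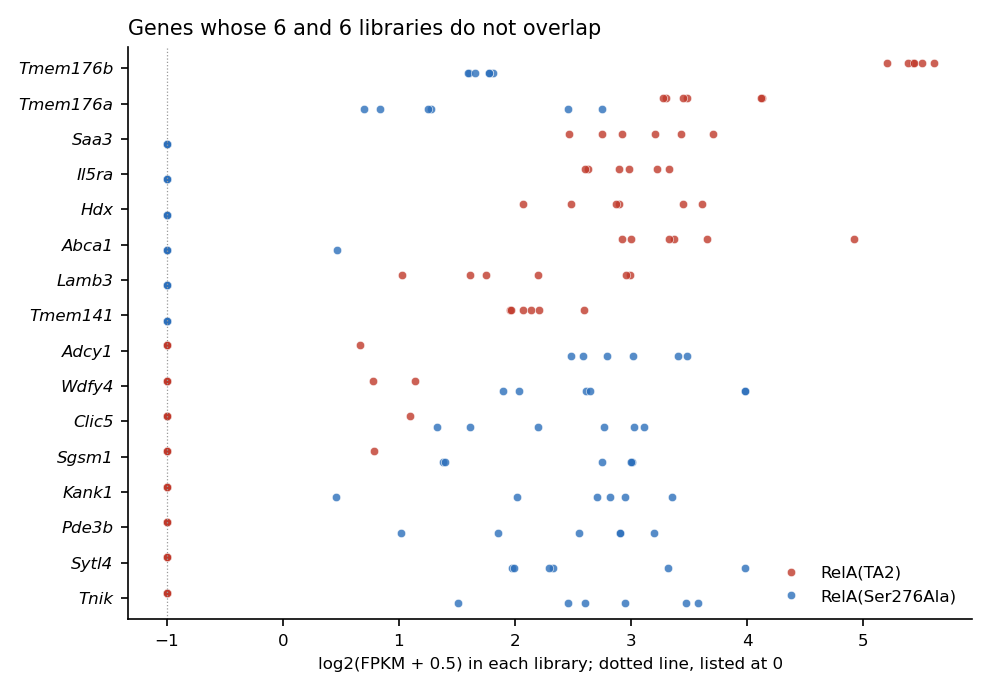
Level of 16 genes in each library, on the log2(FPKM + 0.5) scale, RelA(TA2) in red above RelA(Ser276Ala) in blue. The upper 8 genes are higher and the lower 8 lower in RelA(TA2) cells without overlap, and points on the dotted line are libraries where the gene is listed at 0.

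Several genes were listed at 0 throughout 1 line. Of the 23212 annotated genes, 12 were above 0 in every RelA(TA2) library and listed at 0 in every RelA(Ser276Ala) library, and 19 the other way round. Among the first were Saa3, Il5ra, the receptor of interleukin-5, at 5.58 to 9.53 FPKM in RelA(TA2) cells, Hdx, a homeobox gene, at 3.71 to 11.7 FPKM, and Lamb3, a laminin chain, at 1.53 to 7.43 FPKM. Abca1, the pump that exports cholesterol from cells, had 7.06 to 29.7 FPKM in RelA(TA2) cells and was listed at 0 in 5 RelA(Ser276Ala) libraries and at 0.883 FPKM in the other. Among the genes listed at 0 in every RelA(TA2) library were Tnik, a kinase of Wnt signalling, at 2.35 to 11.4 FPKM in RelA(Ser276Ala) cells, Sytl4, which tethers secretory granules, at 3.43 to 15.3 FPKM, Pde3b, a phosphodiesterase that breaks down cyclic AMP, at 1.53 to 8.69 FPKM, and Kank1, an adaptor of the cytoskeleton, at 0.877 to 9.69 FPKM. Adcy1, a cyclase that makes cyclic AMP, was at 1.09 FPKM in 1 RelA(TA2) library and at 0 in 5, against 5.09 to 10.7 FPKM in RelA(Ser276Ala) cells. Tnik, Sytl4 and Kank1 were above 0 in every RelA(wt) library.

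The test of the difference in TNFα response asks which genes changed with TNFα by a different amount in the mutants. It called 9 genes with a higher and 9 with a lower response in RelA(TA2) cells at 1 h (0.0736% each of the genes tested), and 7 and 8 at 2 h (0.0573% and 0.0654%), 26 genes in all. These counts are unsteady: without 1 library they ran from 12 to 41 and 6 to 68 at 1 h and from 6 to 37 and 5 to 67 at 2 h, with 41 and 37 higher without RelA(TA2) 0 h replicate 1, and the replicate block gave 5 and 2 at 1 h and 5 and 5 at 2 h. Of these 26, 10 were listed at 0 in both libraries of a condition, among them Rpl37, Fkbp2, Prpf39 and Kdelr3, and 8 also passed in the same direction on recovered fragments. Of the 16 with no library at 0, Wdr92 alone passed on recovered fragments.

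Wdr92, a gene of a WD-repeat protein on chromosome 11 (chr11:17211893-17235200), passed at both times. It had 38.2 and 31.2 FPKM at 0 h, 124 and 130 at 1 h and 200.0 and 220.0 at 2 h in RelA(TA2) cells, against 22.0 and 21.5, 27.9 and 25.7, and 26.6 and 27.9 FPKM in RelA(Ser276Ala) cells. RelA(TA2) cells reached 6.05 times and RelA(Ser276Ala) cells 1.25 times their 0 h mean at 2 h, and RelA(wt) cells, at 34.7 and 32.9, 189 and 196, and 225 and 227 FPKM, reached 6.69 times. The difference in response was 1.57 at 1 h (adjusted p = 0.0196) and 2.27 at 2 h (adjusted p = 0.00189, SE 0.16 each, limma), and on recovered fragments 0.92 (adjusted p = 0.0142) and 1.59 (adjusted p = 4.34e-04).

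Ccl20, which attracts lymphocytes and dendritic cells and has a κB match before its start, passed at 2 h. It was listed at 0 in all libraries before TNFα and had 7.07 and 6.58 FPKM at 1 h and 8.18 and 7.55 at 2 h in RelA(TA2) cells, against 1.95 and 3.18, and 0 and 0 FPKM in RelA(Ser276Ala) cells. RelA(wt) cells had 42.6 and 36.0, and 25.1 and 28.5 FPKM at these times. RelA(TA2) cells thus held their level at 2 h, where RelA(Ser276Ala) cells were listed at 0 again (adjusted p = 0.0104 for the difference in response and 0.0125 on recovered fragments, limma, but 0.143 where genes had to reach 5 FPKM to be tested). On recovered fragments 21 genes had a higher and 8 a lower response in RelA(TA2) cells at 2 h (0.179% and 0.0681% of those tested). Among the 21, chosen after their values were seen, were Nfkb1, Tnfaip2, Sod2, the mitochondrial superoxide dismutase, Ptges, which makes prostaglandin E2, and Nlrp3, the inflammasome sensor, with differences of 0.95, 1.21, 0.68, 0.81 and 3.30 (adjusted p between 0.00468 and 0.0409, limma). None of these 5 passed on FPKM, and for Sod2 the sign turned (-0.36, adjusted p = 0.897).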

How the data were processed

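RNA of immortalized mouse embryonic fibroblasts was sequenced from 12 libraries of the mutant lines. Per the labels and the study's methods base calling by the authors used CASAVA 1.8.2, alignment used TopHat2 2.0.5 (with Bowtie2 2.0.0.7) and mm10, and Cufflinks 2.0.2 assembled every library separately. The deposited values are FPKM of assembled transcripts with confidence limits. The deposited merged annotation holds no measurements and gave the exons of the RefSeq genes.

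Transcripts with at least 50% of their bases on the exons of a RefSeq gene (23212 genes), or covering at least 50% of its exon bases, were placed on it. Their FPKM were summed. A transcript placed on more than 1 gene gave its full FPKM to each. Fragment counts were worked out from FPKM and its upper confidence limit at loci with 1 transcript. Below 500 fragments, 88.9% to 90.2% of these were whole within 0.02 in the mutant libraries. The whole ones gave a factor for each transcript length, and every transcript's recovered count is its FPKM times that factor. Genes that reached 1 FPKM in 2 or more libraries entered the test on log2(FPKM + 0.5) in limma 3.58.1 (R 4.3.3), with time as a block and 8 residual degrees of freedom, or with 1 mean per line and time and 6 for single times and responses, and Benjamini-Hochberg adjustment. A gene without an assembled transcript is set to 0, so its fitted difference depends on the 0.5 FPKM added, and 12.4% of the genes tested had such a 0. Assembly fused 555 tested genes with a neighbouring gene, of which 36 were called. The scripts were tested on simulated data. Genes were named by role and by qRT-PCR use in the study, up to 14 per direction by size of difference among separate genes, up to 4 per list by adjusted p, up to 5 per direction and time by response, and up to 6 per direction that were listed at 0 in 1 line; a few others fill out counts and were chosen after their values were seen. A few genes counted in the lists are not reported here by name. The genes and lists were chosen with earlier results of these data known.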

Additional observations from a re-analysis of the deposited data

Results flagged for a closer look

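In the 56 groups of 6 libraries formed by 28 genes and both lines, 10 libraries stood apart from the rest of their group. Chance gives about 1 in 20 groups, but that rate does not apply as such, since each group spans 3 times and in 4 of the 10 the other 5 libraries are listed at 0, so that any value above 0 stands apart. In RelA(TA2) cells, 0 h replicate 1 was high in Slc6a14 (67.8 FPKM), Abca1 (29.7 FPKM) and Sgsm1 (1.23 FPKM), and 0 h replicate 2 was above libraries at 0 in Adcy1 (1.09 FPKM) and Clic5 (1.64 FPKM). Adal was high in RelA(TA2) 2 h replicate 1 (15.2 FPKM) and Dapk1 in RelA(TA2) 1 h replicate 2 (3.49 FPKM). In RelA(Ser276Ala) cells, 0 h replicate 2 was high in Sytl2 (61.1 FPKM) and Abca1 (0.883 FPKM), and 2 h replicate 2 in Xlr (104 FPKM). The calls of Slc6a14 and Adal held in 6 and 3 of the 12 fits without 1 library.

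The response to TNFα differed between the lines on FPKM and on recovered fragments for 8 genes. The difference in response, on the log2(FPKM + 0.5) scale, was 1.57 at 1 h and 2.27 at 2 h for Wdr92. It was 4.06 at 2 h for Ccl20. Ccl20 and the other 6 genes were listed at 0 in both libraries of at least 1 condition, so that the size depends on the 0.5 FPKM added. Kdelr3 had 5.72 at 1 h and 10.66 at 2 h, Prpf39 had 5.47 and 4.80, and Gm6548, joined with a neighbour, had 4.98 at 1 h. The values were -3.68 at 1 h for 4833419F23Rik, -6.63 at 2 h for Fkbp2 and -11.84 at 2 h for Rpl37.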

How the results depend on the processing

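Of 111 named genes past the test over all times, 89 stayed past it in each of the 12 fits that left out 1 library, and 22 were lost in at least 1. In those fits the counts over all times ranged from 344 to 468 higher and 419 to 598 lower genes, at 0 h from 58 to 289 and 47 to 196, at 1 h from 62 to 121 and 68 to 167, at 2 h from 82 to 146 and 56 to 165, and for the response from 12 to 41 and 6 to 68 at 1 h and 6 to 37 and 5 to 67 at 2 h. The higher genes over all times fell to 344 without RelA(Ser276Ala) 0 h replicate 2, and the lower ones to 419 without RelA(TA2) 1 h replicate 2. On recovered fragments 2005 and 2500 genes were called over all times, 1215 and 1172 at 0 h, 795 and 902 at 1 h, 899 and 1070 at 2 h, and 21 had a higher response at 2 h, where the smaller spread given above goes with the rise. A fit on all 18 libraries gave 234 and 171, 167 and 211, and 206 and 165 genes at the 3 times, and 14 and 11 with a higher response at 1 h and 2 h. The replicate numbers did not pair the libraries (correlations of deviations -0.0726 to 0.0985); with the replicate block 74, 63 and 82 genes were higher at the 3 times, 5 higher and 2 lower in response at 1 h and 5 lower at 2 h, and with a block for each time and replicate number 255 and 297 over all times. Each time fitted by itself called 36 and 49 genes at 0 h, 52 and 49 at 1 h, and 43 and 29 at 2 h, from 4 libraries. Median-of-ratios scaling gave 652 and 565 genes over all times and quantile normalization 596 and 601, with all-gene medians of -0.001 and -0.013. Leaving out the 2 libraries with a low share of fragments in genes, chosen after seeing the data, left 418 higher and 507 lower genes. The sign turned for Crebbp on recovered fragments (0.16, adjusted p = 0.0114), Aen with its highest transcript only (0.0014, adjusted p = 0.995) and Kdelr3 in the 0 h libraries (-5.06, adjusted p = 0.0199); the cause was not tested. Low genes are limited by assembly, since a 0 is no measured absence.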

Other observations

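Single genes of other lists lay apart at every time. Fstl1, a secreted glycoprotein that binds BMP ligands, had 121 to 157 FPKM in RelA(TA2) cells and 65.4 to 90.4 FPKM in RelA(Ser276Ala) cells (log2 difference 0.82, SE 0.04, adjusted p = 3.37e-06, limma). Cdh11, a cadherin of mesenchymal cells, had 7.04 to 9.21 FPKM in RelA(TA2) cells and 3.83 to 4.67 FPKM in RelA(Ser276Ala) cells (log2 difference 0.86, SE 0.09, adjusted p = 5.30e-04). Both were higher in 6 of 6 RelA(TA2) libraries than in any RelA(Ser276Ala) library.

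Casp4, the inflammatory caspase that senses lipopolysaccharide, had 1.48 to 4.18 FPKM in RelA(TA2) cells and was listed at 0 in 5 RelA(Ser276Ala) libraries and at 0.948 FPKM in the other. Id2, an inhibitor of helix-loop-helix factors, climbed with TNFα in both lines, with 9.55 and 6.82, 17.99 and 19.28, and 43.6 and 45.8 FPKM at 0, 1 and 2 h in RelA(TA2) cells, against 19.9 and 17.2, 25.8 and 37.5, and 82.0 and 75.4 FPKM in RelA(Ser276Ala) cells (log2 difference -0.89, SE 0.12, adjusted p = 0.00198).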
